A study of Arabidopsis thaliana with 6 samples.

Results

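Anthocyanins are the red to purple flavonoid pigments that plants store in the vacuole. The late part of their synthesis is described here through 4 Arabidopsis genes, DFR (AT5G42800), UF3GT (AT5G54060), UGT75C1 (AT4G14090) and GSTF12 (AT5G17220). Each is measured by 1 probe set, a group of short oligonucleotides on the array that together read 1 transcript, out of 22746 probe sets on the array. The genes were chosen by the fold change, difference of means and p-value between the same genotypes, which put their probe sets in the authors' deposited table of 274 probe sets. Their direction and much of the size of their difference are therefore fixed by that choice, and all genotype differences below are descriptions given without a test. The choice leaves out every gene of the pathway that did not reach the table.

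The arrays measured total RNA of whole seedlings of *Arabidopsis thaliana*, ecotype Col-0, aged 15 days. The genotypes were the double mutant gapcp1gapcp2 (3 biological replicates) and wild type (3 biological replicates). GAPCp is a plastidial form of glyceraldehyde-3-phosphate dehydrogenase, an enzyme of glycolysis, and the double mutant carries mutations in both genes that encode GAPCp. All plants grew at the same time, vertically in diluted MS medium and in long days. The mutant alleles and the number of plants in each RNA pool were not given in the sources used here. The samples' description fields name embryo stages, which no other label shares, and they were not used.

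Flavonoids share their early steps, in which chalcone synthase and its partner enzymes build the ring system. The branch to anthocyanins opens with dihydroflavonol 4-reductase, and anthocyanidin synthase then makes the coloured but unstable anthocyanidin. Sugar and acyl groups are added to stabilise it, and the product is carried to the vacuole. In Arabidopsis the late genes are known to be under the control of a complex of MYB, bHLH and WD40 proteins, and pigment is known to accumulate in strong light, with sugar feeding and when phosphate or nitrogen is short.

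All 4 genes had brighter signals on every mutant array than on any wild-type array. The ratio of group mean intensities, mutant over wild type, was 4.71 for GSTF12, 4.58 for UF3GT, 4.30 for DFR and 3.75 for UGT75C1. On the log2(intensity + 16) scale, on which a fold understates the change of dim probe sets, the median difference of the 4 genes was 1.99, beside -0.02 over all 22746 probe sets. In a limma fit over all probe sets at a Benjamini-Hochberg adjusted p under 0.05, 5.86% of probe sets were called higher in the mutant. The rule used this contrast, so the 4 of 4 called here says nothing more about the genes. Every mutant array was above every wild-type array for 15.5% of all probe sets. More cells that make a transcript and more transcript per cell cannot be told apart in RNA of whole seedlings.

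DFR encodes dihydroflavonol 4-reductase, which reduces dihydroflavonols to leucoanthocyanidins and so opens the branch. Its intensity was 591, 638 and 608 in mutant replicates 1, 2 and 3, against 128, 134 and 165 in wild-type replicates 1, 2 and 3. The lowest mutant array was 3.57 times the highest wild-type array, so the groups were far apart, and wild-type replicate 3 stood above the other wild-type arrays. The means were 612 ± 24.1 in the mutant and 143 ± 20.1 in wild type (SD, n = 3 each). The log2 difference was 1.99 ± 0.10 (SE). DFR had the widest relative spread of the 4 genes in wild type, with an SD of 14.1% of the mean there and 3.93% in the mutant.

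UF3GT encodes the glycosyltransferase UGT79B1. RefSeq names it a flavonoid glucosyltransferase, and in Arabidopsis it is known to add a xylose to the sugar already on the anthocyanin. Its intensity was 350.0, 370.2 and 375 in mutant replicates 1 to 3, against 85.7, 80.03 and 73.3 in wild-type replicates 1 to 3. The genotypes were again apart, and the lowest mutant array was 4.08 times the highest wild-type array. The mutant mean was 365 ± 13.1 and the wild-type mean 79.7 ± 6.21 (SD, n = 3 each), with a log2 difference of 1.99 ± 0.08 (SE). The order of the arrays inside wild type ran against that of DFR, because replicate 1 was the brightest for UF3GT and the dimmest for DFR.

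UGT75C1 encodes the glucosyltransferase that adds a further glucose directly to the anthocyanin ring system. The authors' deposited table describes the locus only as a UDP-glucosyl transferase family protein, and RefSeq gives it no symbol. Its intensity was 221, 241 and 260.3 in mutant replicates 1 to 3, against 67.7, 64.4 and 60.8 in wild-type replicates 1 to 3. Its mutant arrays were the most spread of the 4 genes, with an SD of 8.16% of the mean, and wild-type arrays lay close together at 5.37%. The means were 241 ± 19.7 in the mutant and 64.3 ± 3.46 in wild type (SD, n = 3 each). The log2 difference was 1.68 ± 0.08 (SE), the lowest of the 4, and the lowest mutant array was still 3.26 times the highest wild-type array.

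GSTF12, also known as TRANSPARENT TESTA 19, encodes a phi-class glutathione S-transferase that is known to bind anthocyanins and to be needed for their transfer to the vacuole. Its intensity was 1126, 1039 and 1108 in mutant replicates 1 to 3, against 246, 229 and 221 in wild-type replicates 1 to 3. Its lowest mutant array was 4.23 times its highest wild-type array. The means were 1091 ± 45.7 in the mutant and 232 ± 12.9 in wild type (SD, n = 3 each). The log2 difference was 2.16 ± 0.07 (SE), the highest of the 4. Mutant replicate 1 was the brightest of the mutant arrays for GSTF12 and the dimmest for each of the other 3 genes.

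**Figure D1:**
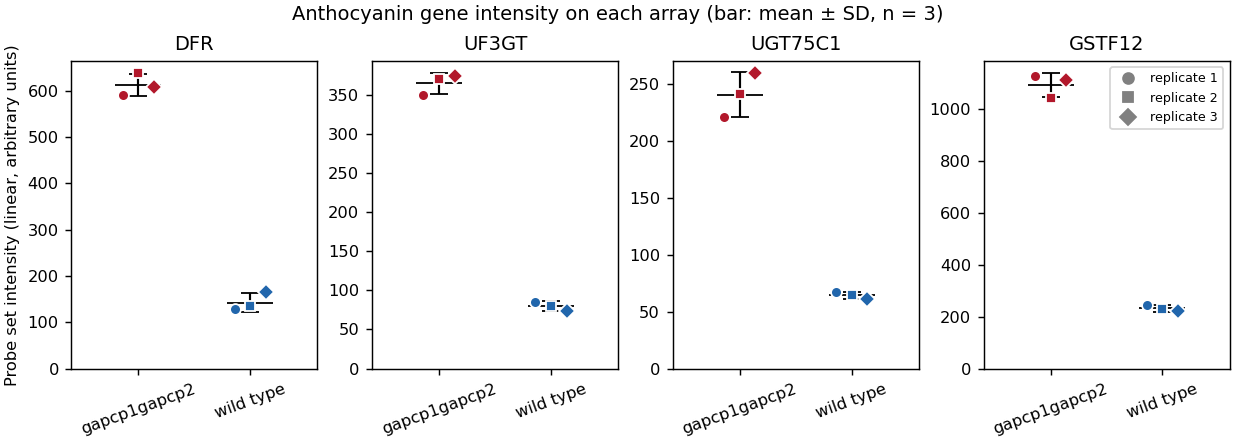
Probe set intensity (linear, arbitrary units, axis from 0) of DFR, UF3GT, UGT75C1 and GSTF12 on each array, with the gapcp1gapcp2 arrays at the left and the wild-type arrays at the right of each panel. Points are arrays, with the replicate number given by the marker shape, and bars are the mean ± SD of 3 arrays. In every panel the mutant arrays lie above the wild-type arrays without overlap, from 3.26 times (UGT75C1) to 4.23 times (GSTF12) between the nearest arrays.

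In the ranking of all 22746 probe sets by log2 difference, from the most positive down, GSTF12 came 32nd, UF3GT 41st, DFR 42nd and UGT75C1 65th. Only 0.286% of probe sets had a log2 difference at or above that of UGT75C1. The spread between replicates was at or below about the middle of the array-wide range. The p-value used in choosing the genes favours a small spread, so nothing is read from this. The residual SD on the log2 scale was 0.068 for GSTF12, 0.075 for UF3GT, 0.090 for UGT75C1 and 0.132 for DFR, which are the 14.6th, 18.7th, 27.5th and 50.1st percentiles over all probe sets. Median array intensities were 110.7 to 117.1 in the mutant and 112.7 to 115.8 in wild type.

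**Figure D2:**
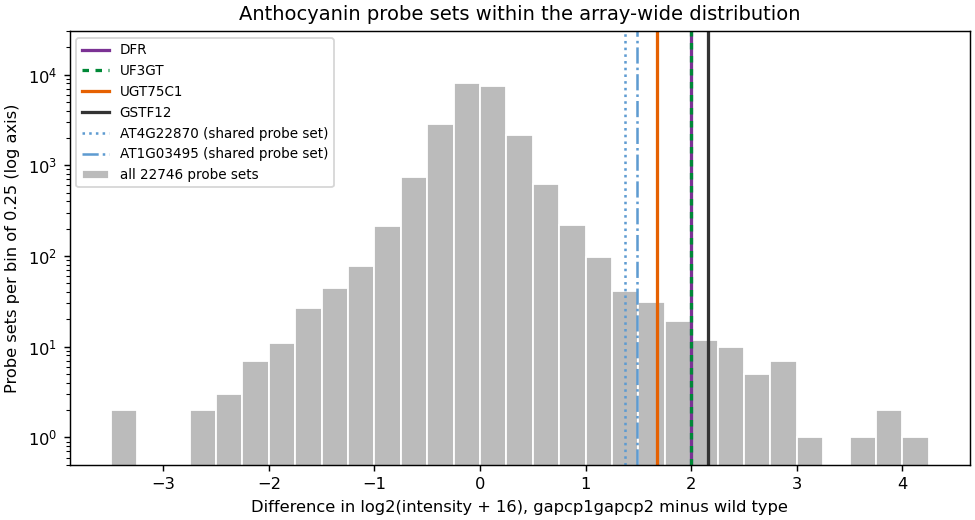
Number of probe sets (log axis) per bin of the difference in log2(intensity + 16), gapcp1gapcp2 minus wild type, for all 22746 probe sets in grey. Vertical lines mark the 4 anthocyanin genes, at 1.68 to 2.16, and dotted and dash-dotted lines the shared probe sets listed under AT4G22870 and AT1G03495, at 1.37 and 1.49. DFR and UF3GT coincide at 1.99.

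The authors' deposited table orders the 4 genes as the ratios of group means do. Its fold change, mutant mean over wild-type mean, was 4.72 for GSTF12, with bounds of 4.37 and 5.11. In the authors' deposited table the fold was 4.63 for UF3GT (bounds 3.94 and 5.59), 4.27 for DFR (3.61 and 5.20) and 3.73 for UGT75C1 (3.0 and 4.81). The bounds of every pair overlapped, and those of UGT75C1 and GSTF12 shared only the stretch from 4.37 to 4.81. The authors' deposited table was filtered on a fold over 2, a difference of means over 100 and a p of at most 0.05. UGT75C1 was the gene closest to that filter, with a difference of means of 176.79 in the authors' deposited table, and the values of genes just outside the filter are not known by name here. The header of the second deposited comparison sets arrays 1, 2 and 3 against arrays 10, 11 and 12. For each of the 4 genes both means in the authors' deposited table lie within the values of their arrays. Some means of other probe sets in the table lie beyond the values of these 6 arrays. Whether the whole table rests on the same arrays and processing is therefore unknown, and its order of folds is no independent support for the order found here.

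Whether the 4 genes differed by equal amounts was described through gene-to-gene differences of log2(intensity + 16) within each array. The level of such a difference depends on the probes. Its shift between genotypes shows unequal change of signal, and whether the transcripts changed unequally was not tested. UGT75C1 and UF3GT were the dimmest in wild type, with means of 64.3 and 79.7. Both lie below the wild-type array medians of 112.7 to 115.8. UF3GT minus DFR was -0.73, -0.76 and -0.68 on mutant replicates 1 to 3, against -0.50, -0.65 and -1.02 on wild-type replicates 1 to 3. The wild-type values enclosed the mutant ones, and the shift was 0.00 ± 0.16 (SE, n = 3 each). GSTF12 minus DFR overlapped as well, with a shift of 0.17 ± 0.16. The wide spread in these pairs comes from the wild-type arrays, where DFR was brightest on the array that was dimmest for the other 3 genes.

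UGT75C1 had a smaller difference than GSTF12 and UF3GT. GSTF12 minus UGT75C1 was 2.27, 2.04 and 2.02 on mutant replicates 1 to 3, against 1.65, 1.61 and 1.62 on wild-type replicates 1 to 3, a shift of 0.49 ± 0.08 (SE). UF3GT minus UGT75C1 was 0.63, 0.59 and 0.50 in the mutant, against 0.28, 0.26 and 0.22 in wild type, a shift of 0.32 ± 0.04. In both pairs the genotypes were apart, also without a pseudocount (shifts of 0.33 and 0.29). DFR minus UGT75C1 shifted by 0.32 ± 0.15, and the arrays overlapped.

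GSTF12 and UF3GT are neighbours at the top of the order. Their difference was 1.64, 1.45 and 1.53 on mutant replicates 1 to 3, against 1.36, 1.35 and 1.41 on wild-type replicates 1 to 3. The shift of 0.17 ± 0.06 kept the genotypes apart at a pseudocount of 16, but without a pseudocount it was 0.04 ± 0.06 and the arrays overlapped. In all, 3 of the 6 pairs did not overlap at a pseudocount of 16. Over all 12246 pairs of the 157 table probe sets of 1 locus that were higher in the mutant, 67.0% did not overlap, so unequal change among the 4 genes was no more frequent than among these.

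**Figure D3:**
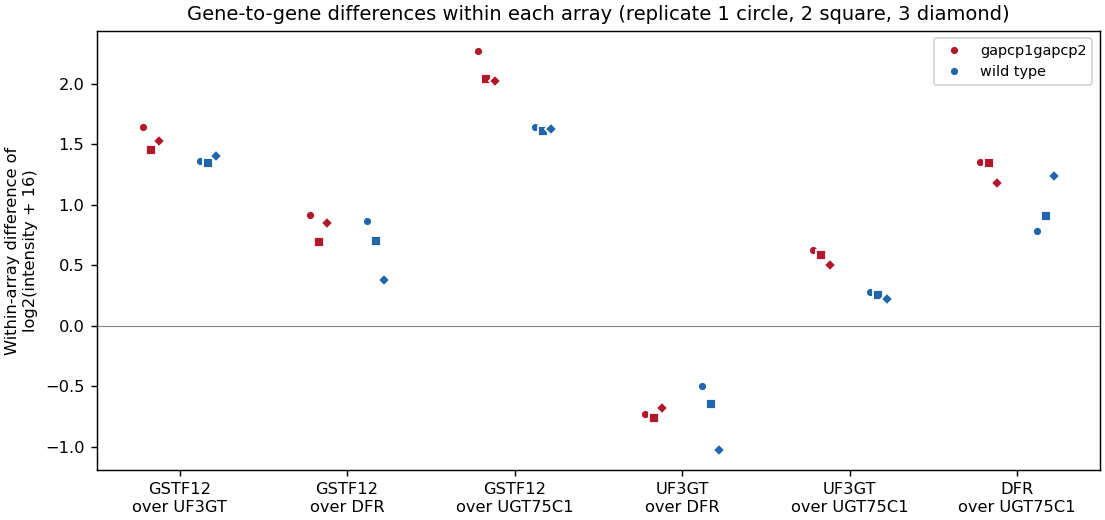
Within-array difference of log2(intensity + 16) for the 6 pairs of genes, with gapcp1gapcp2 arrays in red at the left and wild-type arrays in blue at the right of each pair, and replicates by marker shape. The genotypes are apart for GSTF12 over UGT75C1 and UF3GT over UGT75C1, narrowly apart for GSTF12 over UF3GT, and overlap in the 3 pairs with DFR.

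Around these genes, a list of 52 genes of the flavonoid and anthocyanin pathway and its regulators was searched in the authors' deposited table by locus. Of its 11 late anthocyanin genes, 5 were in the table, the 4 genes above and AT1G03495, and all 5 were higher in the mutant. They are in the table because they passed its filter on this contrast, so nothing is read from their being called in the limma fit (5 of 5, beside 11.0% of all probe sets called in either direction). The other 41 entries had no probe set that could be named. They are the genes of general phenylpropanoid synthesis, the early flavonoid steps such as CHS, CHI and F3H, flavonol and proanthocyanidin synthesis, activators such as PAP1, PAP2 and TT8, and repressors such as MYBL2. Of the 52 genes, 47 therefore have unknown values here, and neither a change nor its absence can be stated for them.

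The probe set listed under AT1G03495 has a design that also matches other transcripts. The locus encodes one of a pair of closely related acyltransferases known to add coumaroyl groups to anthocyanins, so the signal cannot be assigned to 1 of them. Its intensity was 149, 155 and 169 in mutant replicates 1 to 3, against 46.6, 41.5 and 49.7 in wild-type replicates 1 to 3. The groups were apart and the log2 difference was 1.49 ± 0.08 (SE), below that of each of the 4 genes. The authors' deposited table gives means of 265.85 in the mutant and 88.82 in wild type for this probe set. Both lie above every array of their genotype in the deposited intensities, while its fold in the authors' deposited table, 2.99, is close to the 3.43 of the array means.

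A further shared probe set, outside the list by locus and named after its values were seen, is described in the authors' deposited table as a putative anthocyanidin synthase. It is listed under AT4G22870, which lies next to LDOX (AT4G22880), the anthocyanidin synthase gene that acts directly after DFR. Whether it reads LDOX cannot be told from the sources used here. Its intensity was 589, 627 and 612 in mutant replicates 1 to 3, against 229, 199.8 and 251 in wild-type replicates 1 to 3. The groups were apart, with means of 609 ± 18.9 in the mutant and 227 ± 25.9 in wild type (SD, n = 3 each) and a log2 difference of 1.37 ± 0.09 (SE). Wild-type replicate 3 was its brightest wild-type array and mutant replicate 2 its brightest mutant array, as for DFR.

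The named probe sets of 1 locus whose profile over the 6 arrays was closest to each gene were found by the root mean square difference of log2 values, each centred on its own mean. This measure follows the size of the genotype difference first and the order of replicates second. The candidates were probe sets of the authors' deposited table, all of them chosen for that difference. Closest to UGT75C1 were SUS4, a sucrose synthase gene, at 0.036, and GPT2, the plastid glucose 6-phosphate transporter gene, at 0.054. SUS4 averaged 216 ± 16.8 in the mutant and 59.7 ± 4.90 in wild type. GPT2 averaged 255 ± 25.3 in the mutant and 63.9 ± 2.44 in wild type (SD, n = 3 each). FRO3 (0.079), NAS4 (0.087) and CRK4 (0.090) followed.

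Closest to DFR were AT1G52000, a jacalin lectin family gene, at 0.056, and ACA1, of the carbonic anhydrase family, at 0.074, before AT3G15650, AT5G20790 and COR15A (0.094 to 0.101). Closest to UF3GT was AT1G49570, a putative peroxidase gene, at 0.055, before COR15A, AT5G26220, G3Pp1 and NAS2 (0.066 to 0.083). Closest to GSTF12 were the nitrate transporter gene NRT2:1 at 0.070, PYD4 at 0.073, PEPC1 at 0.080 and MGDC, which makes galactolipids, at 0.081. UF3GT was the fifth nearest to GSTF12, at 0.101, and no other of the 4 genes was among the 5 nearest of another. DFR and UGT75C1 were 0.218 apart, with 31 named probe sets closer to DFR and 50 closer to UGT75C1. UGT75C1 and GSTF12 were 0.256 apart, the widest of the 6 pairs.

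**Figure D4:**
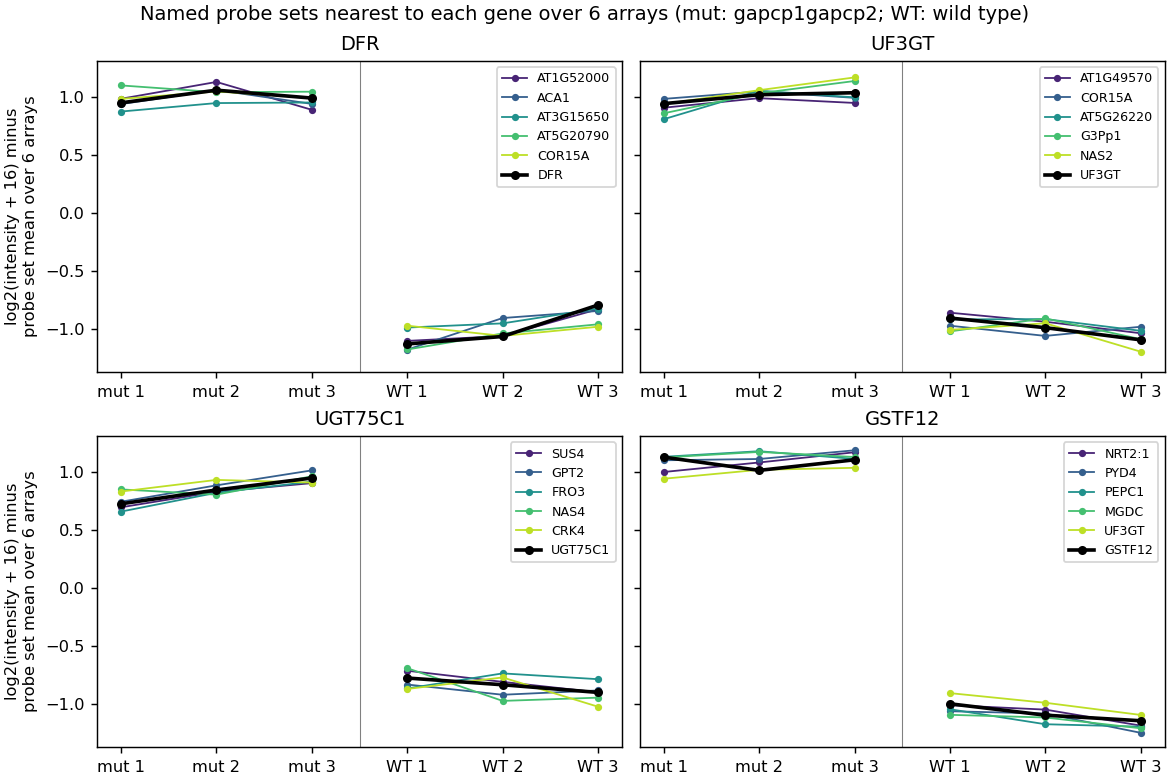
log2(intensity + 16) minus the mean of the probe set over 6 arrays, for each anthocyanin gene (black) and its 5 nearest named probe sets (coloured), with the gapcp1gapcp2 arrays at the left and the wild-type arrays at the right of the grey line. Lines join replicates only to help follow a gene. UGT75C1 and SUS4 run 0.036 apart. In the DFR panel, DFR stands higher on wild-type replicate 3 than on the other wild-type arrays, which COR15A does not.

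Of the 4 genes, 3 encode transferases. A word search of the authors' descriptions and RefSeq synonyms found 4 further glycosyltransferase or glutathione S-transferase genes with a probe set of 1 locus in the table. Genes described in other words may be missing. All 7 were higher in the mutant, and all had passed the authors' filter on this contrast. Of the 256 probe sets of 1 locus in the authors' deposited table, 157 were higher and 99 lower in the mutant. Nothing is read from the direction of the 7. UGT74E2, which glucosylates the auxin indole butyric acid, averaged 277 ± 8.73 in the mutant and 49.8 ± 6.60 in wild type (log2 difference 2.16 ± 0.09 SE). GSTU25, a tau-class glutathione S-transferase gene, averaged 1006 ± 40.4 in the mutant and 313 ± 30.2 in wild type (log2 difference 1.64 ± 0.09 SE, n = 3 each). SUS4 and MGDC were the others, at 1.62 and 2.28. The size of the difference in the 3 anthocyanin genes, 1.68 to 2.16, lay within the range of these 4.

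The 4 root marker genes that could be named were lower on the same mutant arrays. They could be named only because they had passed the authors' filter on this contrast, and 5.13% of all probe sets were called lower in the mutant. Of 18 root marker genes, 4 were in the authors' deposited table, CASP1, ESB1 and PER64 of the endodermis and the tonoplast channel gene TIP2;3, and their summed intensity per array was 653.5 to 700.8 in the mutant and 1839 to 1867 in wild type. None of the 4 was at 0 in either genotype. CASP1 averaged 256 ± 21.0 in the mutant and 753 ± 34.3 in wild type (SD, n = 3 each). Their part in the anthocyanin gene differences was not tested. The other 14 root markers and all 13 leaf markers had no probe set that could be named. The same holds for GAPCP1 and GAPCP2, so the genotype labels could not be checked. The 4 named root markers were picked by the filter and do not stand for root transcripts in general. Whether the makeup of the tissue differed was not tested.

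The differences of the 4 genes kept their sign under every alternative run. They ranged over these from 1.72 to 2.104 for DFR, 1.58 to 2.20 for UF3GT, 1.25 to 1.91 for UGT75C1 and 1.97 to 2.24 for GSTF12, and the pseudocount moved them most. UGT75C1 was the lowest and GSTF12 the highest of the 4 under every alternative. DFR and UF3GT changed places between alternatives, with DFR higher without wild-type replicate 3 (2.09 against 1.95 for UF3GT) and lower without wild-type replicate 1 (1.93 against 2.04).

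**Figure D5:**
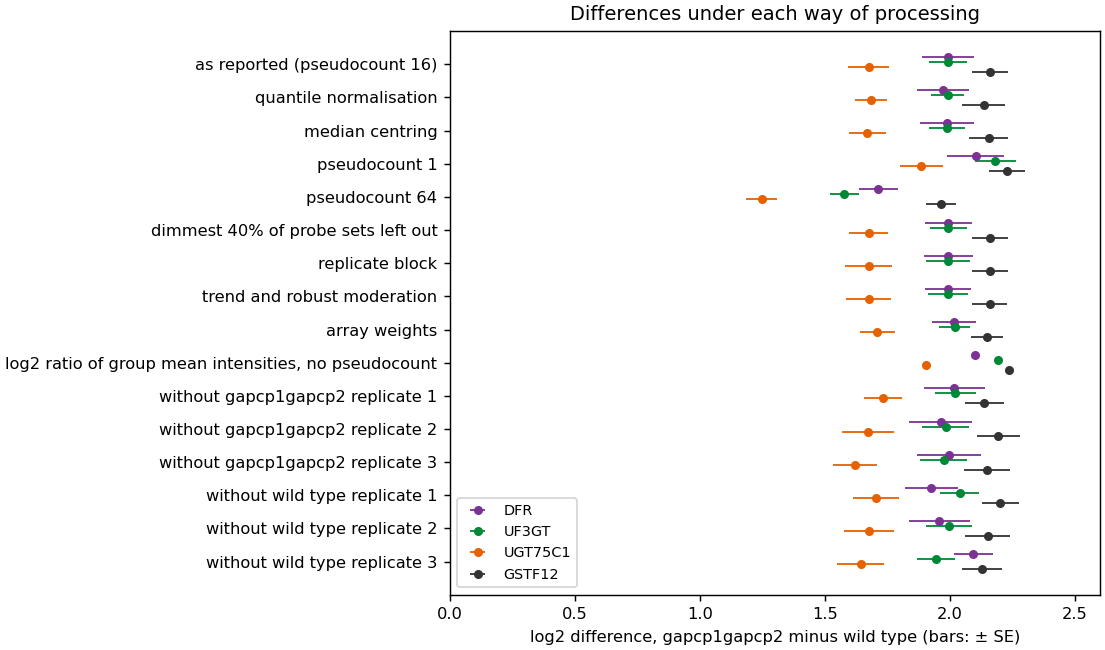
Difference in log2(intensity + pseudocount), gapcp1gapcp2 minus wild type, of the 4 anthocyanin genes under the reported processing and each alternative, with bars of ± SE from the limma fit (no SE for the ratio of group means). UGT75C1 is the lowest and GSTF12 the highest in each line, and a pseudocount of 64 lowers all 4.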

How the data were processed

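Per the file headers and the labels, the authors deposited linear intensity values, 1 for each probe set on each array. GCOS is the only tool in the submitters' processing notes. The scaling of the arrays and the version were not given in the sources used here. The authors' deposited comparison table holds mean intensity, a fold change score and an unadjusted p-value, and for 50 of the 274 probe sets a mean in it falls beyond the values of the arrays, so it may rest on other arrays or processing. A second deposited comparison table held equal folds. The loci of the probe sets were taken from the first. RefSeq names (TAIR10.1) matched 273 of 274, and no sequences were used.

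Negative values became 0, and log2(intensity + 16) was fitted with limma 3.58.1 (R 4.3.3), two-sided, on all 6 arrays without a block, with an adjusted p under 0.05 called. The number of arrays limits the precision. The step was tested on simulated data (4-fold changes in 200 of 22746 probe sets, 98% recovered, 2.49% false calls). The 200 were drawn from probe sets at or above the median wild-type log2 value, so dimmer ones were not covered. UF3GT and UGT75C1, which lie below the wild-type array medians, are among the dimmer ones. The genes and lists were chosen with earlier results of these data known. Named were the 4 genes, list members tied by locus, the 5 nearest probe sets of each gene, and transferase genes of the table. Alternatives were other normalisations, pseudocounts, moderation and array weights, a filter on dim probe sets, the replicate block and leaving out each array. Python 3.11.15 and pandas 2.3.3 were used.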

Additional observations from a re-analysis of the deposited data

How the results depend on the processing

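Of 60 alternative log2 differences of the 4 genes, 50 moved by less than the spread between replicates (1 residual SD), 10 moved by more and 0 changed sign. The 10 were those for another pseudocount or none. At a pseudocount of 64 the values were 1.72 for DFR, 1.58 for UF3GT, 1.25 for UGT75C1 and 1.97 for GSTF12, with a median of 1.65. At a pseudocount of 1 they were 2.18 for UF3GT, 1.89 for UGT75C1 and 2.23 for GSTF12, with a median of 2.14. The log2 ratio of group means without a pseudocount was 2.20 for UF3GT, 1.91 for UGT75C1 and 2.24 for GSTF12. A larger pseudocount compresses a fold by construction. All 5 pathway list members named here were called in each alternative, which their choice on this contrast makes uninformative. The count of calls over all probe sets, 2501, was 3779 with array weights and 1190 to 2347 with 1 array left out. The count was also higher with trend and robust moderation (3502) and at a pseudocount of 64 (3032), and lower at a pseudocount of 1 (2149). It was 3065 of 13647 without the dimmest 40% of probe sets, 2697 with quantile normalisation and 2692 with median centring. It fell to 1190 without mutant replicate 2, 1197 without mutant replicate 3 and 1422 without wild-type replicate 2, and the cause was not tested.

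With the replicate block there were 1687 calls, against 2501 without it, and the differences of the 4 genes were the same (1.99, 1.99, 1.68 and 2.16 for DFR, UF3GT, UGT75C1 and GSTF12). The deviations of 2 arrays with the same number were correlated over probe sets. The correlation was 0.234 for replicate 1, 0.019 for replicate 2 and 0.017 for replicate 3. This is too low in 2 of 3 for pairing by number, and only for replicate 1 was it the highest of the possible partners. Mutant replicate 2 with wild-type replicate 3 gave 0.169, and mutant replicate 3 with wild-type replicate 2 gave 0.136. Pairing under other numbers was not tested.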
